A study of Mus musculus with 12 samples.

Results

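The nuclear genes of mitochondrial oxidative phosphorylation were examined in whole ears of Spade mice. Members were taken by gene symbol, from the names starting Nduf, Uqcr, Cox4 to Cox8 and Atp5 together with Sdha, Sdhb, Sdhc and Sdhd; Sdha as a beginning also takes in the Sdhaf assembly factors. The array annotation gave 185 probe sets that name 1 such gene. For each gene the probe set of highest mean level was kept, which left 94 members of 18194 genes on the array. Of these, 90 had a level of 4 or more on at least 2 arrays and were tested, among 11984 genes tested in all. The rule goes by symbol, and measured levels entered through the choice of probe set and the filter on low levels.

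The groups were Spade/Spade mice, homozygous for the mutant allele, and wild-type littermates, each at 2, 4 and 6 weeks of age, with whole ear tissue as the source. Spade makes the kinase Jak1, which passes cytokine signals on to STAT factors, overactive, and homozygotes are known to develop skin inflammation. Each of the 6 groups had 2 arrays, 12 in all. The labels number the samples but name no animals, and p-values cover the spread between samples alone, which may be technical. Levels are log2 GCRMA values of Affymetrix mouse genome arrays, on which a difference of 1 is a 2-fold difference. A gene was called where the adjusted p of limma over all genes tested was under 0.05, and errors of differences are standard errors (SE) of that fit.

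Oxidative phosphorylation takes place in the inner mitochondrial membrane. Complexes I (NADH dehydrogenase) and II (succinate dehydrogenase) pass electrons to complex III (cytochrome bc1), which hands them to complex IV (cytochrome c oxidase), and complex V (ATP synthase) uses the proton gradient to make ATP. Muscle is among the tissues richest in these complexes, and ear tissue holds skeletal muscle beside skin, fat and cartilage. Some subunits of complex IV exist as a general form and a form of contractile tissue: Cox6a2, Cox7a1 and Cox8b are the forms of heart and skeletal muscle, and Cox7a1 and Cox8b are also made in brown fat.

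Between 52.3% and 58.1% of 45101 probe sets were called present on an array. All 90 tested members were called present on all 12 arrays. Of the 4 members not tested, Cox4i2, Cox7b2 and Cox8c, known from lung or testis, were called absent on all 12 arrays. The fourth, Ndufb4, lay at the floor of 2.14 but was called present on 5 arrays. One array stood apart before any comparison: in replicate 3 of the 2-week Spade ears the mean level of 12 hair shaft genes was 13.20, against 6.47 in replicate 2 and 6.72 and 7.71 in the 2-week wild type. The mean of 24 skeletal muscle markers was 9.10 in that replicate and 11.72 in replicate 2, against 11.82 and 12.01 in the 2-week wild type. The mean of 13 macrophage markers was 10.01 there, against 9.33 in replicate 2 and 9.08 and 9.09 in the 2-week wild type. All 2-week arrays also carry array numbers of a range of their own (23 to 27), so this age and the array range cannot be told apart. The cuts between ranges were set for this report, and the labels do not say what a range marks. Jak1 itself stood at -0.15 ± 0.09 in Spade relative to wild type (limma adjusted p = 0.496).

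The muscle forms of complex IV had the lowest values of Spade relative to wild type among all 90 tested members, and none passed the test. Cox7a1 stood at -1.18 ± 0.42 on average over the ages (limma adjusted p = 0.253), Cox8b at -1.16 ± 0.44 (0.278) and Cox6a2 at -0.90 ± 0.40 (0.336). Their general counterparts stood near 0: Cox7a2 at -0.020 ± 0.055, Cox8a at 0.011 ± 0.098 and Cox6a1 at 0.055 ± 0.056. The general forms kept a narrow range over the arrays. Cox6a1 ranged from 15.03 to 15.30 in Spade ears and from 14.92 to 15.27 in wild type, Cox7a2 from 13.99 to 14.32 in Spade ears and from 13.92 to 14.45 in wild type, and Cox8a from 10.72 to 11.21 in Spade ears and from 10.74 to 11.12 in wild type.

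Cox7a1 had levels of 9.33 and 6.46 in 2-week Spade ears, against 9.84 and 10.03 in wild type. It had 10.28 and 9.74 in Spade ears at 4 weeks, against 11.08 and 10.60 in wild type. At 6 weeks it had 10.26 and 9.95 in Spade ears, against 10.46 and 11.06 in wild type. Both Spade arrays lay below both wild-type arrays at all 3 ages, and the lowest level by far was that of replicate 3 at 2 weeks.

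Cox8b had levels of 10.31 and 7.30 in 2-week Spade ears, against 10.75 and 10.88 in wild type. At 4 weeks the levels were 10.96 and 10.52 in Spade ears, against 11.98 and 11.42 in wild type. At 6 weeks they were 11.10 and 10.61 in Spade ears, against 11.04 and 11.68 in wild type. The groups did not overlap at 2 and 4 weeks and overlapped at 6 weeks.

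Cox6a2 had levels of 10.16 and 7.49 in 2-week Spade ears, against 10.33 and 10.40 in wild type. At 4 weeks they were 10.80 and 10.45 in Spade ears, against 11.69 and 11.02 in wild type. At 6 weeks they were 10.91 and 10.54 in Spade ears, against 10.87 and 11.45 in wild type. As for Cox8b, the groups overlapped at 6 weeks alone.

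In replicate 3 of the 2-week Spade ears Cox8b was 8.10-fold lower than in replicate 2, Cox7a1 7.32-fold lower and Cox6a2 6.39-fold lower. Muscle genes outside the members were low on the same array: Mb, myoglobin, by 25.0-fold, Ckm, the muscle creatine kinase, by 4.93-fold and Acta1, skeletal actin, by 2.66-fold. The median of the other 87 members differed by -0.10 between the same 2 arrays. In whole tissue, fewer cells of a type and less RNA per cell cannot be told apart. Without replicate 3, the average differences were -0.70 for Cox7a1 (limma adjusted p = 0.10), -0.66 for Cox8b (0.133) and -0.46 for Cox6a2 (0.226). Without replicate 2, so that replicate 3 stood alone, 4 members passed on average and at 2 weeks: Cox7a1 at -1.66 (limma adjusted p = 0.0016), Cox8b at -1.66 (0.0020), Cox6a2 at -1.35 (0.0040) and Ndufa6 at -0.28 (0.029) on average. In that fit 8.93% of all genes were called on average and 9.9% at 2 weeks, and on average 23 of 24 skeletal muscle, 11 of 13 macrophage and 6 of 12 hair shaft markers passed. The 3 muscle forms then also passed the test of a difference in genotype effect between 2 weeks and each later age, beside 2.88% of all genes for 4 weeks and 3.1% for 6 weeks.

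**Figure D1:**
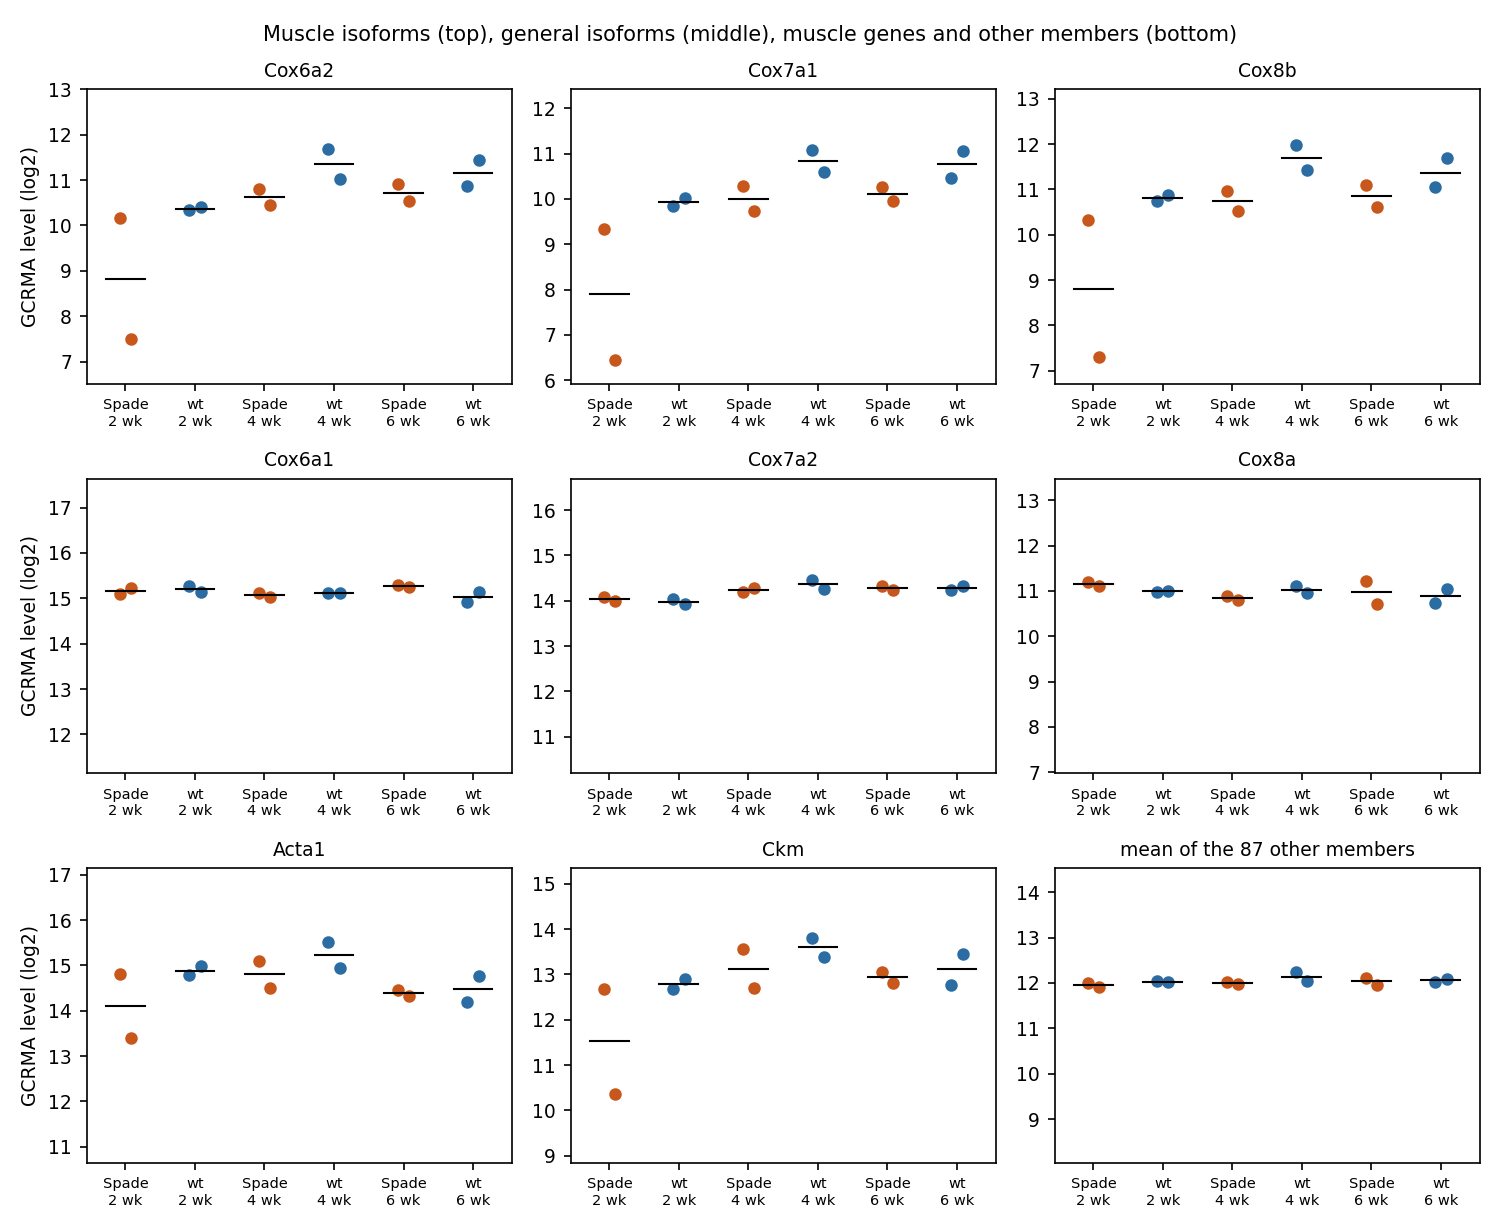
GCRMA level (log2) of 3 muscle forms of complex IV subunits, their general counterparts, Acta1, Ckm and the mean of the 87 other members, in Spade (orange) and wild-type (blue) ears at 2, 4 and 6 weeks; points are arrays, lines are group means, and every panel spans the same log2 range. The muscle forms drop to 6.46 to 7.49 on 1 of the 2 Spade arrays at 2 weeks, while Cox6a1 stays between 14.92 and 15.30 on all 12 arrays.

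The promoters of Cox7a1, Cox8b and the 3 general forms are printed because these muscle forms varied over the arrays far more than the general forms. Cox6a2 is named only. They are the 250 bases before the annotated start in RefSeq (GRCm38.p6), 5′ to 3′ on the gene's strand, with each CG dinucleotide in capitals: Cox7a1 at chr7:30183921-30184170, plus strand; Cox8b at chr7:140900447-140900696, minus strand; Cox6a1 at chr5:115348959-115349208, minus strand; Cox7a2 at chr9:79759854-79760103, minus strand; and Cox8a at chr19:7217617-7217866, minus strand.
Cox7a1: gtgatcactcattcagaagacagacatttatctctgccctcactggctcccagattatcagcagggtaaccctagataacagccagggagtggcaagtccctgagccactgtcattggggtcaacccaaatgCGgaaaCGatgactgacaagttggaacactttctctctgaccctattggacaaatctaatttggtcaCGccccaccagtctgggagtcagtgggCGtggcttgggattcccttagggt
Cox8b: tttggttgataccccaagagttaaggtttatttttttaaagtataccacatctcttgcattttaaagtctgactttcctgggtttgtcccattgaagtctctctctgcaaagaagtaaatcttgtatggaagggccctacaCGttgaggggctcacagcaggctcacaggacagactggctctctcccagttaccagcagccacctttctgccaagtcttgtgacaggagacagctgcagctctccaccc
Cox6a1: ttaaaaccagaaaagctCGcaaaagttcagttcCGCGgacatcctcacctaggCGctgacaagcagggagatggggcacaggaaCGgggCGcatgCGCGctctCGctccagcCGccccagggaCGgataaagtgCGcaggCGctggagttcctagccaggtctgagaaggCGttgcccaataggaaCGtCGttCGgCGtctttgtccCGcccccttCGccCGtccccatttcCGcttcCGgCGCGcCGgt
Cox7a2: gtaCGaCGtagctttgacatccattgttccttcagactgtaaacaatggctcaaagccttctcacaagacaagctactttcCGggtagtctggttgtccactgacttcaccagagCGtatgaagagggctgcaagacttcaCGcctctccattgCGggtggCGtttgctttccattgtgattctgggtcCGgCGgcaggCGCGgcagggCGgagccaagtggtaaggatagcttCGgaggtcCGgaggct
Cox8a: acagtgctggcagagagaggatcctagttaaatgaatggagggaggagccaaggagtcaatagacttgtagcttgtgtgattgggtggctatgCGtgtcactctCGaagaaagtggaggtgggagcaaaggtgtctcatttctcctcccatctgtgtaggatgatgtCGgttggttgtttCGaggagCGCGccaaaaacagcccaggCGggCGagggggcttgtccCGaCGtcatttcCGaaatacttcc

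The window of Cox8b held 1 CG dinucleotide and that of Cox7a1 held 4, against 26 for Cox6a1, 14 for Cox7a2 and 11 for Cox8a. Among the 76 tested members with a RefSeq promoter, the median was 15, and over all 32851 promoters it was 6. Cox8b had the lowest count of the 76, Cox7a1 shared the next lowest with the complex I gene Ndufc2, and Uqcr10 of complex III followed with 5. The letters CAGCTG, an E-box form bound by myogenic factors, occurred once in the Cox8b window, on a sequence that reads the same on both strands, and in none of the other 4 windows. They occurred in 7.89% of the 76 members and in 14.7% of 27025 genes with a promoter. CCGGAAG on either strand, the core of ETS-family sites, occurred in 21.1% of the members and 7.83% of all genes, and among the windows shown only in Cox6a1. The letters AAGGTCA, bound by estrogen-related receptors, were found on either strand in 5.26% of the members and 4.7% of all genes, and in none of the windows shown. The palindrome bound by NRF1, a regulator of respiratory genes, occurred in 5.26% of the members and 0.877% of all genes, and in the window of Cox6a1 alone among those shown. TATAAA on the gene's strand occurred in 2.63% of the members and 8.94% of all genes, and in none of the windows shown. These are matches of letters, chosen for the search after the expression values were known.

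Within an array, the difference between a muscle form and its general counterpart leaves out what both share. Pairs, here and below, were fitted as rows beside all genes tested, without the variance trend. For these fits the share of all genes called is not given. A muscle pair holds the same muscle form as above, so it is not a separate test. In Spade relative to wild type that difference stood at -1.17 ± 0.42 for Cox8b over Cox8a (limma adjusted p = 0.267), at -1.16 ± 0.41 for Cox7a1 over Cox7a2 (0.265) and at -0.96 ± 0.42 for Cox6a2 over Cox6a1 (0.344). None of the 3 passed, and neither did the other measured pairs, Cox6b2 over Cox6b1 (0.033 ± 0.201) and Ndufa4l2 over Ndufa4 (-0.27 ± 0.32). Without replicate 3 of the 2-week Spade ears, which leaves 1 array in that group, the Cox8b pair stood at -0.68 ± 0.11. The Cox7a1 pair then stood at -0.70 ± 0.16 and the Cox6a2 pair at -0.49 ± 0.15. The Cox6b2 pair stood at -0.14 ± 0.16 and the Ndufa4l2 pair at -0.50 ± 0.29.

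The remaining members were compared between genotypes to see whether the whole respiratory chain differed in Spade ears. No member passed in limma on average over the ages, where 0.643% of all genes tested were called, and 10 members had an unadjusted p under 0.05. The differences leaned one way and were small: 78 of 90 members were lower in Spade ears than in wild type, with a median of -0.09 on the log2 scale. Over all genes tested, 57.6% were lower in Spade ears and the median was -0.03. Without the 3 muscle forms, 75 of 87 were lower and the median was -0.084.

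Complex I was represented by 41 tested members. All 6 core subunits were lower in Spade ears, from -0.047 for Ndufv1, which binds NADH, to -0.21 ± 0.12 for Ndufs1, the large iron-sulfur subunit. Ndufs7 stood at -0.060 and Ndufs3 at -0.13. Among 27 tested accessory subunits, which surround the core, 25 were lower, with a median of -0.09. Ndufb2 stood at -0.27 ± 0.09 (limma adjusted p = 0.211) and Ndufb1 at -0.21 ± 0.11, while Ndufb7 stood at 0.10 ± 0.06 and Ndufa1 at 0.069 ± 0.056. Another probe set of Ndufb7 stood at -0.057, so its sign depends on the probe set. Ndufb2 had levels of 11.86 and 11.81 in 2-week Spade ears, against 11.93 and 11.96 in wild type. It had 11.62 and 11.53 in Spade ears at 4 weeks, against 12.19 and 11.77 in wild type, and 11.82 and 11.50 in Spade ears at 6 weeks, against 11.95 and 11.98 in wild type. Its groups did not overlap at any age. Of 8 assembly factors, 7 were lower, with a median of -0.045. Ndufaf5, which hydroxylates the core subunit Ndufs7, stood at -0.37 ± 0.15 (limma adjusted p = 0.288), and Ndufaf6 at -0.30 ± 0.14, while Ndufaf7 stood at -0.0020 ± 0.084 and Ndufaf4 at 0.099 ± 0.106.

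Complex II and its assembly factors gave 8 tested members, of which 7 were lower in Spade ears, with a median of -0.16. Sdhaf4, which helps the flavoprotein subunit Sdha to mature, stood at -0.27 ± 0.09 (limma adjusted p = 0.211). It had levels of 9.32 and 9.18 in 2-week Spade ears, against 9.36 and 9.42 in wild type. It had 9.60 and 9.62 in Spade ears at 4 weeks, against 10.19 and 9.84 in wild type, and 9.83 and 9.55 in Spade ears at 6 weeks, against 9.94 and 9.96 in wild type. The distance was widest at 4 weeks, where wild-type replicate 1 was highest. Sdhaf3 stood at -0.21 ± 0.10, Sdha at -0.11 ± 0.08 and Sdhaf1, an iron-sulfur assembly factor of Sdhb, at 0.15 ± 0.08. In complex III 7 of 8 subunits were lower, with a median of -0.12. Uqcrq stood at -0.16 ± 0.07 and Uqcr11 at -0.14 ± 0.06, both small subunits, while Uqcrb stood at 0.0075 ± 0.065 and Uqcrc1, a core subunit, at -0.052 ± 0.080.

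Among 10 complex IV subunits with a general form, 5 were lower and 5 higher in Spade ears, with a median of -0.0078. Cox7c stood at -0.22 ± 0.24 on a dim probe set that spanned 4.15 to 6.28 over the arrays, lowest in 4-week Spade replicate 2 and highest in 6-week wild-type replicate 1. Cox6c stood at -0.16 ± 0.08. Ndufa4, once counted to complex I and now known as a complex IV subunit, had the highest value of all members, 0.17 ± 0.15. All 17 subunits of complex V were lower, with a median of -0.064, from -0.0025 for Atp5g3 to -0.22 ± 0.08 for Atp5g1 (limma adjusted p = 0.262), both of which encode the c subunit of the rotor. The count of 17 depends on the probe set of Atp5d. The one used stood at -0.0070 and another, of mean level 12.66 against 12.69, stood at 0.15. Atp5k, a small membrane subunit, stood at -0.0060 ± 0.056. Atp5j, a peripheral stalk subunit, stood at -0.17 ± 0.09. Cox7a2l, a factor that joins complexes III and IV into supercomplexes, stood at 0.11 ± 0.07.

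**Figure D2:**
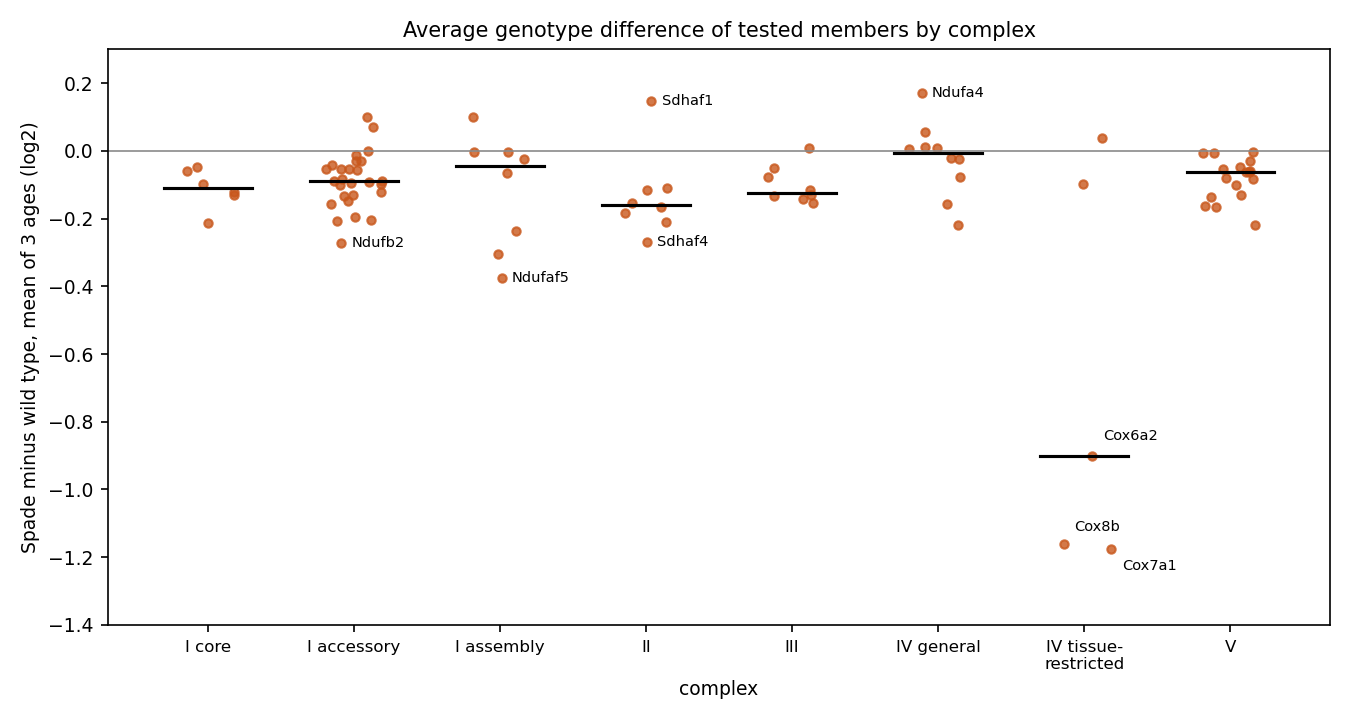
Difference between Spade and wild type averaged over 3 ages (log2, y axis) for the tested members other than Cox7a2l, grouped by complex (x axis); points are genes and lines are group medians. All groups but the tissue-restricted forms of complex IV have medians between -0.16 and -0.0078, and Cox6a2, Cox7a1 and Cox8b lie from -0.90 to -1.18.

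The median of the members was below 0 at each age, and no member passed at any age. At 2 weeks the median was -0.079, with 70 of 90 members lower in Spade ears and 3 at an unadjusted p under 0.05 in limma. At 4 weeks it was -0.15, with 84 lower and 3 at that threshold. At 6 weeks it was -0.054, with 53 lower and 4 at that threshold, but it stood at 0.045 without 6-week Spade replicate 4 and at 0.015 with the array number range as a block. Over all genes tested limma called 0%, 0% and 0.0334% at 2, 4 and 6 weeks, and the medians were -0.038, -0.0054 and -0.035. No member passed the test of a difference in genotype effect between any 2 ages (0% of all genes called; 0 members at an unadjusted p under 0.05 for 4 against 2 weeks, and 2 each for 6 against 2 and 6 against 4 weeks).

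Both Spade arrays lay below both wild-type arrays for 30 of 90 members at 2 weeks, 40 at 4 weeks and 21 at 6 weeks, which is 33.3%, 44.4% and 23.3% of the members. The same held for 22.4%, 15.9% and 25.7% of all genes tested. They lay above both wild-type arrays for 5, 1 and 15 members, beside 12.9%, 16.1% and 19.8% of all genes. A set of 5 members, or 5.56%, was separated downward at all 3 ages, beside 2.08% of all genes: Cox7a1, Ndufa6, Ndufaf1, Ndufb2 and Sdhaf4, a list read off after the values were seen. None was separated upward at all 3 ages, beside 2.65% of all genes.

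The size of the 4-week difference depended on 1 wild-type array. Wild-type replicate 1 at 4 weeks was the highest of the 12 arrays for 52 members (57.8%), while 10.8% of all genes tested had their highest level there. At that age the mean over the tested members was 11.97 and 11.92 on the Spade arrays, against 12.22 on this array and 12.01 on wild-type replicate 3. It also had the highest level of Acta1 (15.51) and of Ckm (13.79) on any of the 12 arrays. Without it the 4-week median was -0.046 and the median averaged over ages -0.043. At the other end, replicate 3 of the 2-week Spade ears was the lowest array for 38 members (42.2%), while 22.3% of all genes had their lowest level there.

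At 4 and 6 weeks the arrays fall into 2 array number ranges, and a comparison inside 1 range was possible with both Spade arrays against 1 wild-type array. At 4 weeks the median of the members was then -0.24, against wild-type replicate 1, and at 6 weeks -0.083, against wild-type replicate 3. Cox7a1 stood at -1.07 and -0.96, Cox8b at -1.24 and -0.83 and Cox6a2 at -1.07 and -0.73 in these comparisons at 4 and 6 weeks. In the limma fits that leave out the other wild-type array no member passed at 4 weeks (23 at an unadjusted p under 0.05) or at 6 weeks (1 at that threshold), beside 0.00834% and 0.0167% of all genes called.

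**Figure D3:**
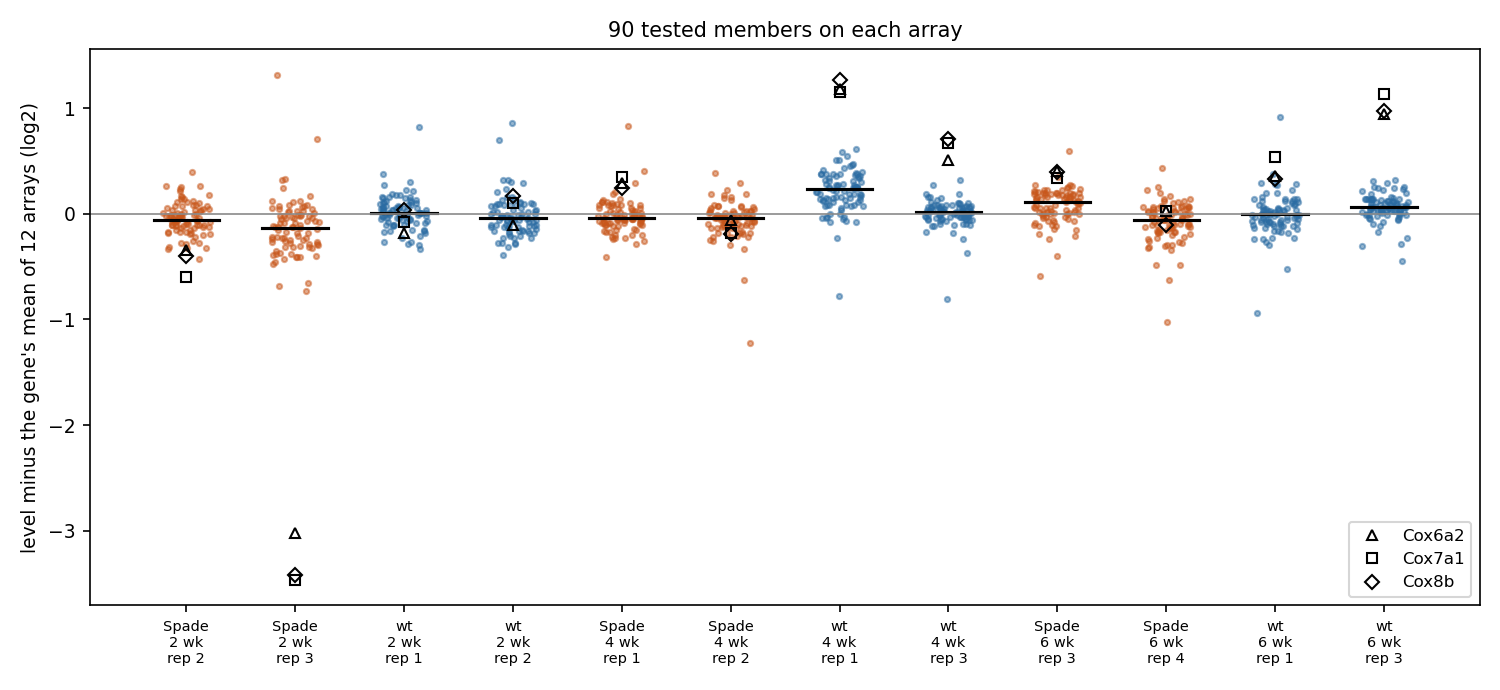
Level of each of 90 tested members on each array minus that gene's mean of 12 arrays (log2); dots are genes, orange in Spade and blue in wild type, lines are medians, and open symbols mark 3 muscle forms of complex IV. Wild-type replicate 1 at 4 weeks lies highest, and on replicate 3 of the 2-week Spade ears the 3 muscle forms lie more than 3 units below their means and the line of medians lies far above them.

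The relation of the members to muscle was measured with the mean of Acta1 and Ckm on each array, called the muscle level here. The muscle forms of complex IV followed it and no other member passed. Fitted within the 6 groups, a rise of 1 in the muscle level went with a rise of 1.43 ± 0.14 in Cox8b (limma adjusted p = 0.0035), 1.37 ± 0.12 in Cox7a1 (0.0019) and 1.27 ± 0.13 in Cox6a2 (0.0038). These were the 3 members of 90 that passed, or 3.33%, beside 2.23% of all genes tested (1.64% upward), and 13 members had an unadjusted p under 0.05. The median slope over all members was 0.088, with 75 of 90 positive, and over all genes -0.021.

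The muscle forms moved with the markers of muscle as a class. All 22 skeletal muscle markers other than Acta1 and Ckm were called on this slope, with a median of 1.13, among them Ckmt2, the mitochondrial creatine kinase of muscle, at 2.70 ± 0.41 and the fast myosin gene Myh2 at 2.17 ± 0.37. The hair shaft genes ran the other way, with all 12 slopes negative, a median of -3.13 and 2 called (-1.24 and 0 called without replicate 3 of the 2-week Spade ears). These slopes rest on the 2-week Spade pair, whose muscle levels were 13.75 in replicate 2 and 11.89 in replicate 3. Without replicate 3, and likewise without replicate 2, no member and 2 of the 22 muscle markers passed. Without replicate 3 the member slopes were 0.88 for Cox7a1 (limma adjusted p = 0.081), 0.89 for Cox8b (0.099) and 0.82 for Cox6a2 (0.129). For slope fits with arrays left out, here and below, the share of all genes called is not given. Their counts of calls cannot tell a weaker relation from a less precise fit. The part of hair or other cells in the slopes was not tested.

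The slope of a muscle form relative to its general counterpart is not a separate test, since it holds the same muscle form on the same arrays. The Cox7a1 pair had a slope of 1.31 ± 0.13 on the muscle level (limma adjusted p = 0.0043), the Cox6a2 pair 1.29 ± 0.17 (0.014) and the Cox8b pair 1.30 ± 0.18 (0.018). Without replicate 3 of the 2-week Spade ears they were 0.83, 0.68 and 0.53, and none passed (limma adjusted p = 0.11, 0.231 and 0.185). The Cox6b2 pair, a testis form over its general form, stood at -0.31 ± 0.21 and the Ndufa4l2 pair at -0.21 ± 0.37, and neither passed. Without that replicate they stood at 0.32 ± 0.32 (limma adjusted p = 0.70) and 1.26 ± 0.39 (0.244), so the sign of both slopes depends on 1 array.

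Over the 12 arrays, which went through 1 normalization, the mean of the 3 muscle forms had r = 0.97 (Spearman's rho = 0.87) with Ckm and r = 0.79 (rho = 0.38) with Acta1. Without replicate 3 of the 2-week Spade ears these were r = 0.85 (rho = 0.83) with Ckm and r = 0.42 (rho = 0.20) with Acta1 over 11 arrays. Without the 2 arrays farthest from the median of each gene, r was 0.77 with Ckm and 0.054 with Acta1, so the relation with Acta1 over groups rests on those arrays. As deviations from group means, r was 0.98 with Ckm and 0.95 with Acta1. Within the 6 Spade arrays r with Ckm was 0.98, and within the 6 wild-type arrays it was 0.93. The deviations and the 6 Spade arrays both hold the 2-week Spade pair. On its replicates 2 and 3 the mean of the muscle forms was 9.94 and 7.08, and Ckm was 12.7 and 10.4. The r of the deviations and of the Spade arrays were not computed without replicate 3. The mean of the other 87 members had r = 0.68 with Ckm (rho = 0.62) and r = 0.69 with Acta1 (rho = 0.41), and r = 0.68 and 0.58 without that replicate. Without the 2 arrays farthest from the median of each gene, which were that replicate and 4-week wild-type replicate 1, r was 0.43 with Ckm (rho = 0.35) and 0.11 with Acta1 (rho = -0.018), so the relation with Acta1 rests on those arrays here too. Its whole span was 11.91 to 12.25, while the mean of the 3 muscle forms spanned 7.08 to 11.58.

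Single members spread widely. The median r with Ckm was 0.45 over the members and 0.10 over all genes tested, and with Acta1 0.42 and 0.0047. Of the 90 members, 42 had r over 0.5 with Ckm, or 46.7%, beside 20.1% of all genes. After the 3 muscle forms (0.97, 0.97 and 0.97) the next were Ndufa10 (0.85), Ndufs3 (0.83) and Ndufb9 (0.82), all of complex I. At the low end were Cox6b2 (-0.69), Cox6c (-0.52), Cox5a (-0.49) and Ndufb6 (-0.44). Without replicate 3 of the 2-week Spade ears these were -0.36, -0.20, -0.45 and -0.42, and those of Ndufa10, Ndufs3 and Ndufb9 were 0.62, 0.71 and 0.75. These are descriptions of 12 arrays.

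With the muscle level as a covariate, the genotype difference of the members had a median of -0.055 on average, 0.018 at 2 weeks, -0.12 at 4 weeks and -0.037 at 6 weeks. Cox7a1 then stood at -0.45 (limma adjusted p = 0.243), Cox8b at -0.40 (0.34) and Cox6a2 at -0.22 (0.553) on average. A fit that also left out replicate 3 of the 2-week Spade ears was added after the values were seen. It leaves 1 array in that group. There Cox7a1 stood at -0.50, Cox8b at -0.46 and Cox6a2 at -0.27.

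**Figure D4:**
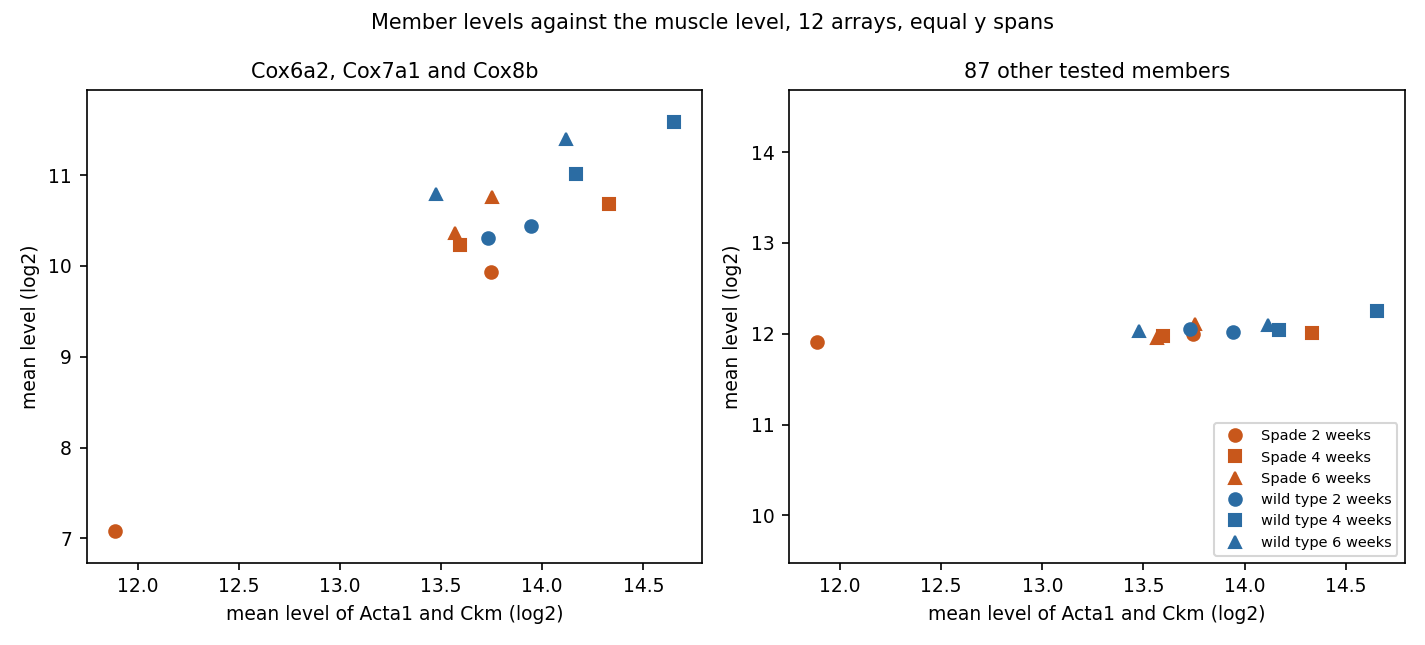
Mean level (log2, y axis) of Cox6a2, Cox7a1 and Cox8b (left) and of the 87 other tested members (right) against the mean level of Acta1 and Ckm (log2, x axis) on 12 arrays; colour marks genotype, shape marks age, and both panels span the same number of log2 units. The muscle forms run from 7.08 to 11.58 and the other members from 11.91 to 12.25.

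Companion pathways of mitochondria and energy supply were set beside the members. No gene of these 5 lists passed between genotypes on average. Of 16 tested genes of the tricarboxylic acid cycle, which feeds electrons to the chain, 15 were lower in Spade ears, with a median of -0.14; Dld stood at -0.34 ± 0.10 and Dlat at -0.26 ± 0.13, both of the pyruvate dehydrogenase complex. Of 16 genes of mitochondrial fatty acid oxidation 13 were lower (median -0.09, and -0.049 without replicate 3 of the 2-week Spade ears), and Fabp3, the fatty acid carrier of muscle, stood at -1.01 ± 0.56. Echs1, an enzyme of the beta-oxidation spiral, stood at -0.31 ± 0.11. Of 15 glycolytic genes 12 were lower (median -0.08), led by the muscle forms Pgam2 at -0.69 ± 0.38 and Eno3 at -0.67 ± 0.33. Of 14 regulators of mitochondrial biogenesis 11 were lower (median -0.07); Perm1, a muscle regulator, stood at -0.72 ± 0.34 and Ppargc1a, the coactivator PGC-1α, at -0.50 ± 0.21. Of 13 outer membrane and import genes 11 were lower (median -0.053), with Tomm70a at -0.16 ± 0.08 and Vdac3 at -0.13 ± 0.065.

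On the slope with the muscle level, 3 of 15 glycolytic genes and 2 of 16 fatty acid genes were called. Among glycolytic genes Pgam2 (1.25 ± 0.07), Eno3 (1.09 ± 0.06) and Pfkm (0.68 ± 0.09) were called, with limma adjusted p = 3.1e-04, 3.1e-04 and 0.012, and among fatty acid genes Fabp3 (1.75 ± 0.24, adjusted p = 0.012) and Acadm (0.32 ± 0.06, adjusted p = 0.034). No gene of the tricarboxylic acid cycle, biogenesis or import lists was called on the slope. Perm1 stood at 0.97 ± 0.20 (limma adjusted p = 0.052) and Ppargc1a at 0.60 ± 0.14 (0.063). Without replicate 3 of the 2-week Spade ears 2 glycolytic genes and no fatty acid gene were called.

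Markers of other cells that can hold these isoforms or many mitochondria were read on the same arrays. Ucp1, the defining gene of brown fat, lay at the floor of 2.14 and was called absent on all 12 arrays. Cidea and Elovl3 of the brown fat list were bright, and Dio2, also read, was dimmer. Cidea, a lipid droplet protein, ranged from 11.91 to 12.65 in Spade ears and from 11.59 to 12.72 in wild type. Elovl3, a fatty acid elongase, ranged from 11.23 to 12.05 in Spade ears and from 11.48 to 12.13 in wild type. Dio2 ranged from 4.86 to 7.85 in Spade ears and from 5.31 to 6.96 in wild type. Which cells made these transcripts was not tested. The mean of the 6 tested genes of that list, Cox7a1 and Cox8b included, ranged from 8.11 to 10.10 in Spade ears, lowest in replicate 3 at 2 weeks, and from 9.51 to 10.31 in wild type. The mean of 11 adipocyte markers ranged from 7.63 to 10.08 in Spade ears, lowest in replicate 3 at 2 weeks, and from 8.44 to 10.30 in wild type. The mean of the muscle markers ranged from 9.10 to 12.57 in Spade ears and from 11.82 to 12.94 in wild type. All 24 muscle markers were lower in Spade ears on average (median -0.67, none called), and without replicate 3 at 2 weeks their median was -0.30. Of 10 tested cartilage markers 9 were lower (median -0.55, none called, and -0.31 without that replicate). All 13 macrophage markers were higher (median 0.70, 4 called), with a range of the mean from 9.33 to 10.01 in Spade ears and from 8.44 to 9.21 in wild type. The part of these cells in the member differences was not tested.

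Growth of the ear was followed by the difference between ages. Averaged over both genotypes, a comparison added after the values were seen, 17 of 90 members passed between 6 and 2 weeks, or 18.9%, beside 24.1% of all genes tested. Of these, 13 were higher at 6 weeks and 4 lower, beside 17.7% of all genes called higher and 6.35% called lower. The median of all genes stood at 0.11 and that of the members at 0.087. With each array centred on its median, 8 members were called, 2 higher and 6 lower, beside 19.7% of all genes, and 6 of them were among the 17: Sdhaf4 and Ndufb3 higher, and Ndufa4l2, Cox6b2, Atp5d and Sdhc lower. The member median was then -0.03, so the direction of the members as a group depends on the scaling. The values given next are on the deposited scale. With single arrays left out the count was 5 to 26, the highest without 2-week Spade replicate 2, where 31.5% of all genes were called, and the lowest without 2-week wild-type replicate 2, where 11.1% were. The count was 9 without 2-week wild-type replicate 1 (12.9% of all genes), 7 without 6-week Spade replicate 3 (13.1%) and 8 without 6-week wild-type replicate 3 (15.1%). Age and array range cannot be told apart in these values. Markers of other tissue moved over the same interval: 10 of 11 adipocyte markers were called higher at 6 weeks (median 1.79, and 1.31 with 9 called without 2-week Spade replicate 3), 7 of 12 hair shaft markers were called lower (median -4.22, and -2.62 with 6 called without it) and 3 of 24 skeletal muscle markers were called higher (median 0.71, and 0.205 with 6 called without it). The mean level of the adipocyte markers at 6 weeks was 10.08 and 9.75 in Spade ears and 10.28 and 10.30 in wild type, while at 2 weeks it was 8.58 and 7.63 in Spade ears and 8.44 and 8.50 in wild type. Their part in the members' differences was not tested.

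The 4 members that fell were Ndufa4l2, Cox6b2, Atp5d and Sdhc. Ndufa4l2, a hypoxia-induced relative of Ndufa4, fell by 1.24 ± 0.27 (limma adjusted p = 0.014) and the testis form Cox6b2 by 1.04 ± 0.27 (0.025). Atp5d, the delta subunit of ATP synthase, fell by 0.53 ± 0.09 (0.0059), and Sdhc, a membrane anchor of complex II, by 0.32 ± 0.07 (0.017). Ndufa4l2 had levels of 7.66 and 7.22 in Spade ears at 6 weeks, against 8.26 and 8.96 at 2 weeks. In wild type it had 7.31 and 7.80 at 6 weeks, against 8.62 and 9.11 at 2 weeks. The ages did not overlap in either genotype. Atp5d had 12.58 and 12.57 in Spade ears at 6 weeks, against 12.94 and 13.02 at 2 weeks, and 12.16 and 12.51 in wild type at 6 weeks, against 12.96 and 13.01 at 2 weeks. A second probe set of Atp5d stood at -0.076, so its change depends on the probe set, while a second probe set of Sdhc stood at -0.47.

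Among the 13 members that rose, 10 belong to complex I, which is also the complex with the most tested members. Whether complex I was called more often than the other complexes was not tested. With each array centred on its median, the 2 members called higher were Sdhaf4 and Ndufb3, of which Ndufb3 alone belongs to complex I. On the deposited scale the 5 highest of the 13 were Sdhaf4 (0.50 ± 0.11), Ndufa6 (0.47 ± 0.11), Sdha (0.38 ± 0.09), Ndufb3 (0.38 ± 0.08) and Ndufb11 (0.38 ± 0.08), with limma adjusted p = 0.011 to 0.022. The others were Ndufv1, Ndufa13, Ndufs7, Ndufa5, Ndufaf8, Ndufv3, Cox7a2 and Ndufb7, from 0.35 to 0.25. The other probe sets of Ndufb11 stood at 0.11 and 0.23, and the second of Ndufa5 at 0.21, lower than those used by more than 1.5 times, and 1 of the other 2 of Ndufv1 at 0.20. Sdha had levels of 11.99 and 11.78 in Spade ears at 6 weeks, against 11.53 and 11.42 at 2 weeks, and 11.94 and 12.03 in wild type at 6 weeks, against 11.69 and 11.59 at 2 weeks. The muscle forms had larger values without passing: Cox7a1 stood at 1.52 (limma adjusted p = 0.062), Cox6a2 at 1.35 (0.074) and Cox8b at 1.30 (0.113). These values depend on the 2-week Spade pair. Without replicate 3 they were 0.80 for Cox7a1, 0.68 for Cox6a2 and 0.54 for Cox8b, and without replicate 2 they were 2.24, 2.02 and 2.05. Relative to its general counterpart, with all arrays, Cox8b stood at 1.44 ± 0.52 (limma adjusted p = 0.077). The Cox6a2 pair stood at 1.38 ± 0.51 (0.085) and the Cox7a1 pair at 1.25 ± 0.51 (0.109). Without replicate 3 the Cox8b, Cox6a2 and Cox7a1 pairs stood at 0.71 ± 0.14, 0.67 ± 0.20 and 0.56 ± 0.20.

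Within Spade alone Ndufb3 (0.53 ± 0.11, limma adjusted p = 0.025) and Ndufb11 (0.48 ± 0.12, 0.039) passed, beside 9.94% of all genes (7.58% higher, 2.36% lower). Neither passed without 2-week Spade replicate 3 or without either 6-week Spade array. Ndufb11 also no longer passed without any single 4-week array or 2-week wild-type array. Each of these fits leaves 1 array in a group and called a smaller share of all genes. A call lost there cannot tell a smaller change from a less precise fit. The genes called also changed with the processing: median centring called Atp5d and Sdhc, both lower (6.62% of all genes called), MAS5 signals called Ndufb3, Ndufs7 and Ndufs8 (6.36%), the mean of probe sets called Ndufb3 and Atp5o (6.69%), and the muscle level as covariate called Cox7a1 alone (7.86%). Within wild type alone, Atp5d was the single member that passed between 6 and 2 weeks (-0.65 ± 0.13, limma adjusted p = 0.031), beside 4.82% of all genes (3.31% higher, 1.51% lower). It no longer passed without any single one of the 2-week wild-type arrays, 6-week wild-type replicate 1 or the Spade arrays of 4 and 6 weeks. These fits too leave 1 array in a group and called a smaller share of all genes. Without either 2-week Spade array 5 members passed: Atp5d, Cox6b2, Ndufa6, Ndufs7 and Sdhaf4, beside 12.5% of all genes. The difference of these changes between genotypes did not pass. Between 4 and 2 weeks no member passed in limma in Spade (16 at an unadjusted p under 0.05), beside 1.91% of all genes (1.44% higher), and none in wild type (12 at an unadjusted p under 0.05), beside 0.459%. Between 4 and 2 weeks, averaged over genotypes, 7 members passed, or 7.78%, beside 9.53% of all genes (6.83% higher, 2.7% lower): Sdhaf4, Ndufv1, Ndufa13, Cox7a2 and Ndufb7 rose, and Cox6b2 and Atp5d fell. Between 6 and 4 weeks no member passed in limma in Spade, in wild type or averaged (3, 2 and 3 members at an unadjusted p under 0.05), and 0% of all genes were called.

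**Figure D5:**
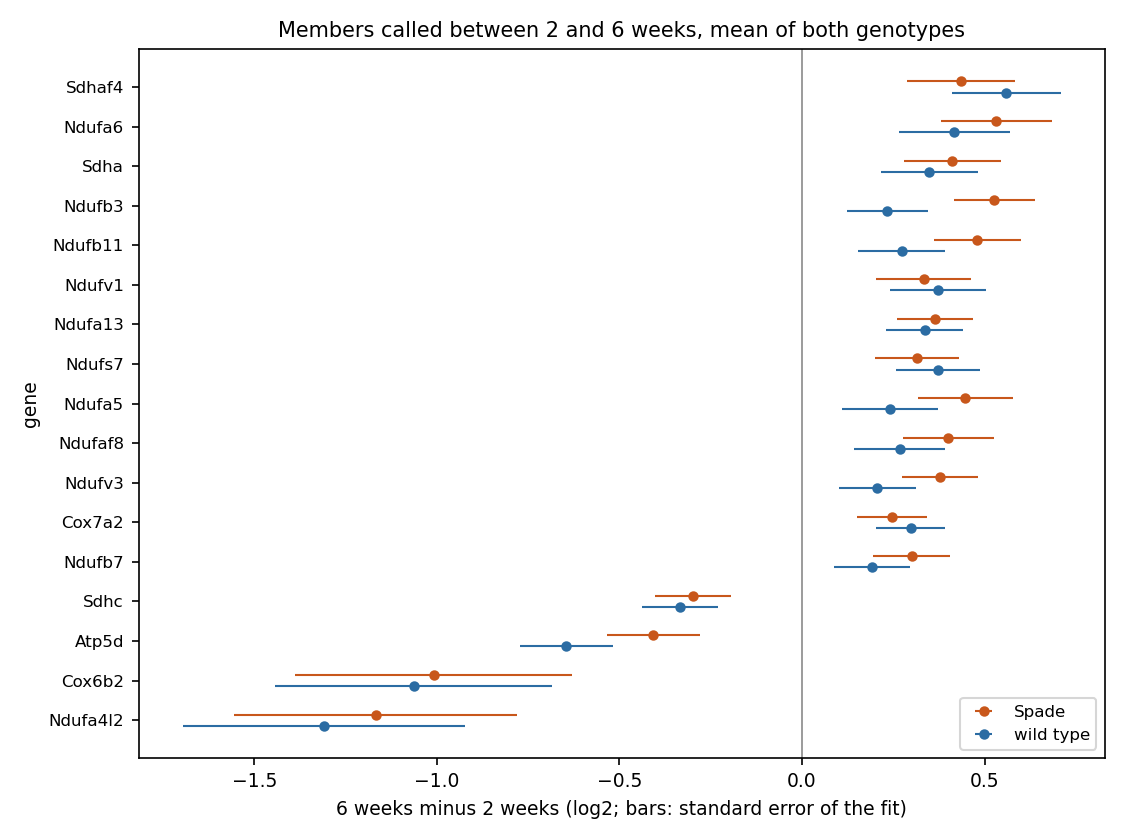
Difference between 6 and 2 weeks (log2, x axis) in Spade (orange) and wild type (blue) for 17 members called when both genotypes are averaged; bars are standard errors of the fit. Both genotypes have the same sign for all 17, with Ndufa4l2 lowest and Sdhaf4 highest on average.

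The members were followed as a group over the arrays. Each member was set against the mean of the other members, which gave a median r of 0.61, with 33 of 90 over 0.7, or 36.7%, and 10 below 0. The 11894 other genes tested had a median r of 0.13 with the mean of the members, and 5.89% were over 0.7. These are descriptions of arrays that share 1 normalization. The mean used here holds the 3 muscle forms. On replicate 3 of the 2-week Spade ears it was 11.75 with them and 11.91 without them. Its r with Ckm was 0.82 with them and 0.68 without them, and the ranking was not made without them. The 10 other genes with the highest r over 12 arrays ranged from 0.96 to 0.92. They were Idh3g, Idh3b and Pdha1, subunits of mitochondrial dehydrogenases that supply NADH, Decr1 and Hsd17b10, enzymes of fatty acid and branched-chain breakdown, Cacnb1, a calcium channel subunit of skeletal muscle, Klhl40, a muscle thin filament factor, Ppp1r3c, a glycogen-targeting phosphatase subunit, Lmcd1 and Tatdn3. Without replicate 3 of the 2-week Spade ears these r lay between 0.86 and 0.94.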

How the data were processed

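Total RNA of ear tissue was hybridised to 1 array per sample. The log2 values are GCRMA values as deposited: per the series design text and the submitters' processing notes, the authors normalized the arrays with GCRMA (version not given in the sources used here). The intensity values deposited per array are linear MAS5 signals with detection calls, used for those calls and, after a floor of 50 and log2, as an alternative. Gene names are those of GEO's annotation of the platform; 10 probe sets that name a member and another gene were left out.

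Tests used limma 3.58.1 in R 4.3.3 on group means of all 12 arrays, with 6 residual degrees of freedom, a variance trend and Benjamini-Hochberg adjustment over 11984 genes. The isoform pairs were added as rows to these genes and fitted without the variance trend. The slope fit adds the muscle level and has 5 residual degrees of freedom, and Acta1 and Ckm, which define it, were left out of its counts. On simulated data, the average comparison of 11984 genes recovered 42% of shifts of 0.5 and 84% of shifts of 1, and the slope 23% and 67%. Noise was drawn for each gene on its own, with no effect shared by the genes of an array. These shares describe that setting and not the power for the members. Summaries used Python 3.11.15 with pandas 2.3.3, and figures matplotlib 3.10.9. The number of arrays limits the precision.

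Members and lists were chosen with earlier results of these data known. The text names Acta1, Ckm and Jak1, the complex IV isoform pairs, the 2 highest and 2 lowest genotype differences of each complex, members called, the 10 most alike genes and 2 genes per companion list, and other genes it names were picked after their values were seen; the rule's members of highest level are given only where another part of it names them, since levels are not compared between probe sets. Marker lists are given by counts and means. Alternatives were filters, probe set summary, MAS5, centring, quantile normalization, variance trend, blocks, covariates and arrays left out.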

Additional observations from a re-analysis of the deposited data

Results flagged for a closer look

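Some members had both Spade arrays above both wild-type arrays at one age and below them at another. These opposite directions were read from 2 arrays a group. The limma interaction of each pair of ages did not pass (adjusted p = 0.838 to 1). At 6 weeks the Spade minus wild type difference was 0.24 for Atp5d, 0.30 for Ndufaf4, 0.16 for Ndufb11 and 0.13 for Ndufb8, against -0.26, -0.29, -0.10 and -0.15 at 4 weeks. Cox6b1 stood at 0.13 at 6 weeks, against -0.029 at 2 weeks. Cox8a stood at -0.19 at 4 weeks, against 0.15 at 2 weeks. Atp5h stood at -0.06 at 4 weeks and -0.16 at 6 weeks, against 0.076 at 2 weeks. Ndufaf2 stood at -0.14 at both later ages, against 0.084 at 2 weeks.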

How the results depend on the processing

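No member passed between genotypes at 4 or 6 weeks under any alternative run, and none between 6 and 4 weeks in either genotype. Leaving out each array in turn gave 0 to 4 members on average over ages and at 2 weeks, 0 to 3 for the difference between ages and 0 to 3 for the slope on the muscle level. For wild type at 6 against 2 weeks it gave 0 to 5, for Spade 0 to 17 and for both genotypes averaged 5 to 26, and the highest counts came in fits that called 12.5%, 22.7% and 31.5% of all genes. In these fits a lone array is assumed to vary like the other groups. Without 2-week Spade replicate 2 the genotype, Spade age and averaged age counts were highest. The average of both genotypes gave 9 and 5 without wild-type replicates 1 and 2 at 2 weeks, 7 without Spade replicate 3 and 8 without wild-type replicate 3 at 6 weeks, and 8 with median centring (19.7% of all genes called).

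For wild type at 6 against 2 weeks the count was 0 on MAS5 signals (2.51% of all genes called), without a filter (2.04%) and with the mean of probe sets (5.62%), 5 with the muscle level as covariate (9.24% of all genes called), 12 with that covariate and without 2-week Spade replicate 3 (16.8%), and 6 without that array and 4-week wild-type replicate 1 (13%). For Spade at 6 against 2 weeks it was 1 without a filter (3.76%), with quantile normalization (7.33%), without a variance trend (8.66%) and with the muscle covariate (7.86%, and 10.7% without 2-week Spade replicate 3), and 0 without both arrays (7.73%). The slope called 0 members without both arrays. The fit with the muscle covariate and without 2-week Spade replicate 3 was added after the values were seen. The cause of these changes in count was not tested, except that arrays left out leave fewer samples.

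The median of the members lay between -0.12 and -0.043 on average, -0.14 and -0.045 at 2 weeks, -0.24 and -0.046 at 4 weeks and -0.10 and 0.045 at 6 weeks with arrays left out in turn, and at -0.046 at 4 weeks without both arrays. It turned positive at 6 weeks without Spade replicate 4 (0.045) and with array range as a block (0.015). The correlation of the mean of all members was 0.77 with Acta1 and 0.82 with Ckm, 0.57 and 0.73 without 2-week Spade replicate 3, 0.10 and 0.54 without the 2 arrays farthest from the median, and 0.71 with Ckm on deviations from group means. For the 3 muscle forms it was 0.95 with Acta1 on such deviations, which include 2-week Spade replicate 3. Without that replicate it was 0.42 with Acta1 and 0.85 with Ckm over the arrays.

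Groups of 1 age share 1 replicate number, and the labels do not say what a number marks. A fixed replicate block by label number, added after the values were seen, left 3 residual degrees of freedom. In limma it called 0 members between genotypes on average and at 2, 4 and 6 weeks (0, 0, 4 and 2 at an unadjusted p under 0.05, with 0% of all genes called), and 0 between 6 and 2 weeks in Spade (19 at an unadjusted p under 0.05), in wild type (10) and averaged (25), with 0%, 0% and 1.39% of all genes called, and the member median at 6 weeks was 0.117. A random replicate block by label number had a correlation of -0.011 and called 0 members on average, as without the block, 17 for 6 against 2 weeks, and changed no other count. Of the single-gene values, 984 stayed on their side of the threshold, 240 no longer passed, 11 newly passed and none reversed.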
